A study of Ovis aries with 9 samples.

Results

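Reads from the strand opposite to annotated RNAs were a small, mostly short fraction of the small RNA of ram sperm, and their amount and length differed between the 3 libraries. A sequence was counted as antisense when every RNA name the authors gave it ended in -antisense, and the sequences were grouped by the RNA named, by length and by first base. By this rule 43624 of the 3309646 distinct sequences in the 3 libraries were antisense, and no sequence carried sense and antisense names together. The antisense sequences numbered 22097 of 1296002 in OVER, 14614 of 1249810 in RES and 13394 of 1311597 in CON.

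The animals were wild-type F1 rams (Ovis aries) grouped by the feeding labelled for each group: over feeding in OVER, restricted feeding in RES and standard feeding in CON. The title of the series places that feeding in the mothers' gestation, and the comparison asks whether it is seen in the sperm RNA of the sons. The labels list 3 samples a group, but the 3 tables of a group gave identical reads for every sequence, so each group was used as 1 library and no difference between groups could be tested. The labels used here give neither breed nor age nor the number of rams behind a table, and the sperm had been treated with a buffer that lyses somatic cells. The libraries held 8287937 reads in OVER, 13160116 in RES and 9983895 in CON, and levels are given as reads per 1000000 library reads (RPM). All intervals are exact 95% intervals and cover counting error only, since reads amplified by PCR without molecular identifiers are not independent molecules.

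Small RNAs that lie opposite to an annotated transcript can arise in several known ways. In the germ line, PIWI proteins load piRNAs, which often begin with U, and the cutting of a complementary transcript by a PIWI protein gives a partner whose 5′ end overlaps that of the first by 10 nt (the ping-pong cycle). Dicer cuts double-stranded precursors into short duplexes with overhanging 3′ ends, and miRNA genes can be annotated on a strand other than the one that gives the mature miRNA. Breakdown of longer transcripts that overlap on opposite strands gives antisense fragments as well.

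Sequences of 3 kinds from the 30 largest antisense families are shown here, in forms that matched the genome, because the values below refer to them. They are a choice and not the largest families in order, and family f is the smallest of the 30. Families were built from sequences sharing a run of 14 nt with the leading sequence, and the form shown is that with the most reads among the genome-matching members of the family. The first kind carried the name miRNA-antisense, with bases 2 to 8, the seed of a miRNA, in capitals:
miRNA-antisense family a: gTGAAATGtttaggaccact
miRNA-antisense family b: gAGAGATCagaggcgcagagt
miRNA-antisense family c: aAAAACCTgaacgaactttt
The second kind was lncRNA-antisense, and the sequence shown for family g also carried the name snRNA-antisense (small nuclear RNA). This kind is shown without capitals, first 3 families that centred on 21 or 22 nt and then 2 families of longer reads:
lncRNA-antisense family d: tcgtgtccaactgtttgcaac
lncRNA-antisense family e: acttgactactggaagaaccat
lncRNA-antisense family f: tttgatgatccaacggatgttg
lncRNA-antisense family g: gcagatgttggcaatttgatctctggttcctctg
lncRNA-antisense family h: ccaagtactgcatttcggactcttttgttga
The third kind was lncRNA-antisense of 15 nt, rich in G, with runs of at least 3 G in capitals:
lncRNA-antisense family i: tcGGGctGGGcGGGa
lncRNA-antisense family j: ccGGGtGGGacGGGa

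In total, antisense reads took 8381 RPM in OVER, 2955 RPM in RES and 3709 RPM in CON. As a share of library reads this was 0.838% in OVER (0.832 to 0.844%), 0.296% in RES (0.293 to 0.298%) and 0.371% in CON (0.367 to 0.375%). The OVER share was 2.26-fold higher than that of CON (log2 ratio 1.18, 1.16 to 1.19), and the RES share was 1.26-fold lower than that of CON (log2 ratio -0.33, -0.35 to -0.31). The OVER share was 2.84-fold higher than that of RES (log2 ratio 1.50, 1.49 to 1.52). Most antisense sequences were seen only once: 71.6% of them in OVER, 66.3% in RES and 69.5% in CON. In all 3 libraries together, 1473 antisense sequences were shared, and they carried 54.4% of the antisense reads of OVER, 49.2% of those of RES and 52.9% of those of CON. Neither singletons nor sharing were counted over all sequences, so these values are not shown to be particular to antisense sequences.

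Antisense reads were on average shorter than the libraries they came from, and they were shortest in OVER. Their mean length was 18.2 nt in OVER, 20.02 nt in RES and 23.9 nt in CON, against mean read lengths over the whole library of 23.3 nt in OVER, 27.2 nt in RES and 28.5 nt in CON. Reads of 15 to 20 nt made up 65.3% of antisense reads in OVER (64.9 to 65.6%), 57.6% in RES (57.1 to 58.1%) and 26.4% in CON (25.9 to 26.8%). Reads of 25 to 31 nt, the size of most piRNAs, made up 2.49% in OVER, 11.8% in RES and 26.1% in CON. Reads of 32 to 42 nt made up 0.456% in OVER, 4.34% in RES and 13.1% in CON. The order of the libraries was thus OVER, RES, CON for the short reads and the reverse for the long reads, with intervals that did not overlap.

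Set against all library reads, the antisense reads of 15 to 20 nt reached 5469 RPM in OVER, 1702 RPM in RES and 978 RPM in CON, and those of 25 to 42 nt reached 247 RPM in OVER, 478 RPM in RES and 1456 RPM in CON. The libraries differed in the same way in their overall lengths: 29.6% of all reads in OVER, 10.3% in RES and 5.98% in CON were of 15 to 20 nt. Within that class, the antisense share was 1.85% in OVER, 1.65% in RES and 1.64% in CON, so the 5.59-fold difference of OVER from CON in RPM was a 1.13-fold difference (log2 ratio 0.18, 0.15 to 0.21) per library read of the class. At single lengths the direction was the other one: the OVER share was below that of CON at each length from 15 to 19 nt, for example 2.39% in OVER against 3.47% in CON at 16 nt, and above it only at 20 nt, with 0.776% in OVER against 0.675% in CON. The RES to CON ratio within the class of 15 to 20 nt was 1.01-fold, with an interval on both sides of 0 (log2 0.01, -0.03 to 0.04). For the long reads the difference stayed within the class: 0.0778% of library reads of 25 to 42 nt were antisense in OVER, 0.0736% in RES and 0.191% in CON, which is 2.45 times less in OVER, and 2.59 times less in RES, than in CON. Between OVER and RES the same ratio was 1.06-fold (log2 0.08, 0.01 to 0.15). At 21 to 24 nt the share was 0.689% in OVER, 0.314% in RES and 0.724% in CON, so here RES was 2.31-fold lower than CON. Most of that gap lay in family a: without it, an alternative chosen after seeing the data, the share was 0.298% in OVER, 0.263% in RES and 0.291% in CON, and RES was 1.11-fold lower than CON (log2 ratio -0.15, -0.20 to -0.10).

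A single figure for each pair of libraries was obtained by giving the reads of one library the antisense share per nt of the other. At the shares of CON, the OVER library would have held 11037 antisense RPM and the RES library 5191 antisense RPM, and the values seen were 0.759 and 0.569 times these. At the shares of RES, the OVER library would have held 7856 antisense RPM, and the value seen was 1.07 times this. The direction of OVER against CON was therefore higher in plain RPM and lower when lengths were matched.

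**Figure D1:**
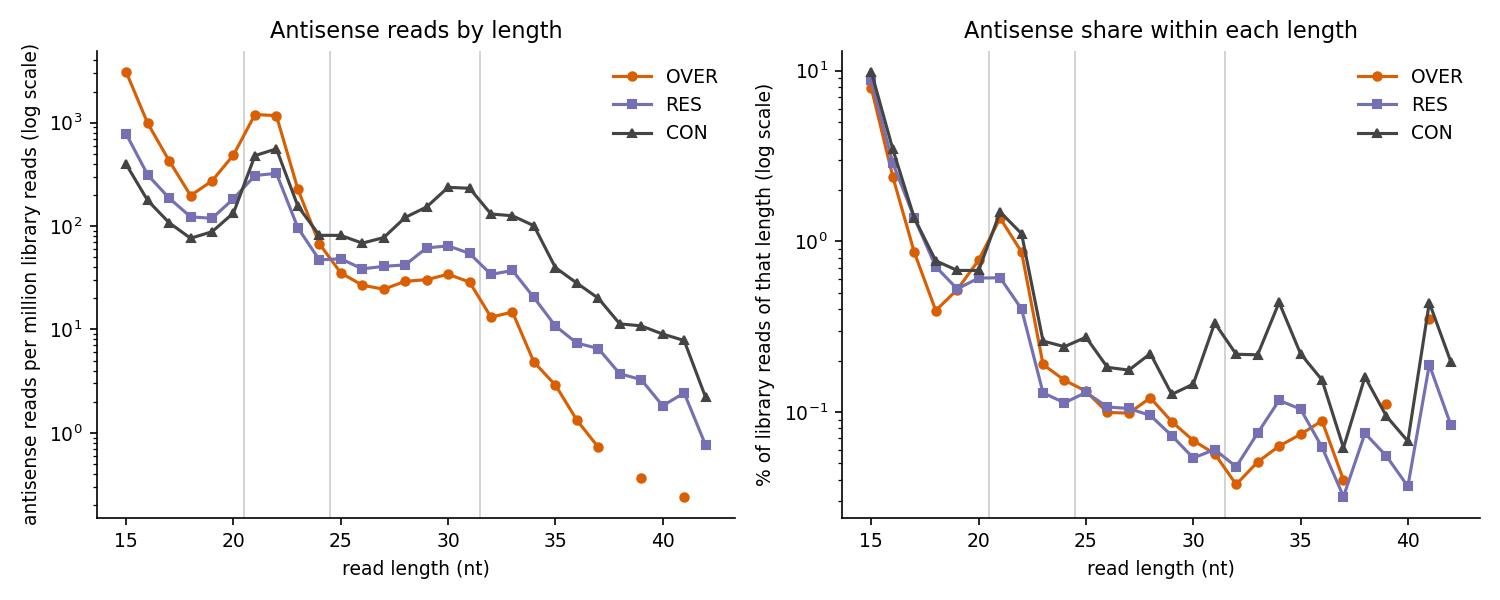
Antisense reads by read length (x axis, nt) in the OVER, RES and CON libraries, in RPM (left, log scale) and as a percentage of library reads of the same length (right, log scale); points at 0 are left out and grey lines mark the length classes. On the left, OVER is highest at 15 nt with 3094 RPM and CON is highest from 25 nt up; on the right, all 3 libraries are highest at 15 nt and CON lies above RES at every length from 25 to 42 nt, while OVER and RES cross.

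At 15 nt the antisense share was at its highest, with 7.90% of all OVER reads of that length, 8.78% of RES reads and 9.82% of CON reads. Further ridges were seen in RPM at 21 to 22 nt and at 30 to 31 nt. The ridge at 21 nt stood at 1199 RPM in OVER, 308 RPM in RES and 480 RPM in CON. That at 30 nt stood at 34.1 RPM in OVER, 64.3 RPM in RES and 237 RPM in CON.

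By the RNA named, 120 names occurred on the antisense strand, of which 108 were seen in OVER, 71 in RES and 65 in CON. A single name was carried by 98.6% of antisense reads in OVER, 96.8% in RES and 93.1% in CON. Long non-coding RNA (lncRNA) was the name of 70.2% of antisense reads in OVER, 85.5% in RES and 72.6% in CON. Second came miRNA, with 25.2% in OVER, 9.22% in RES and 23.9% in CON. The other names with at least 1% of the reads of some library were small nuclear RNA (snRNA), RNAs of the splicing machinery, and DNA, a name that the files do not explain.

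With at least 100 reads in the libraries compared, 9 names could be compared between OVER and CON, and in OVER 7 of them stood at 2 or more times the CON level and 1 (snRNA) at a level 2 or more times below it. Of 165 names on the sense strand, 47.9% passed the same 2-fold limit upwards and 6.06% downwards. Between RES and CON, 0 of 8 antisense names passed this limit upwards in RES and 2 (miRNA and snRNA) downwards, beside 6.75% and 12.3% of 163 sense names. Between OVER and RES, 6 of 9 antisense names passed it upwards in OVER and 0 downwards, beside 45.3% and 7.65% of 170 sense names. The median log2 ratio of the antisense names was 1.25 for OVER against CON, 0.10 for RES against CON and 1.34 for OVER against RES, and that of the sense names was 0.99, 0.10 and 0.91. Scaling by TMM, a method that sets the bulk of the names level, moved every ratio of an antisense name by -1.17 for OVER against CON, -0.15 for RES against CON and -1.02 for OVER against RES on the log2 scale, so the directions below hold for RPM. The other names had fewer than 100 reads in the libraries compared.

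**Figure D2:**
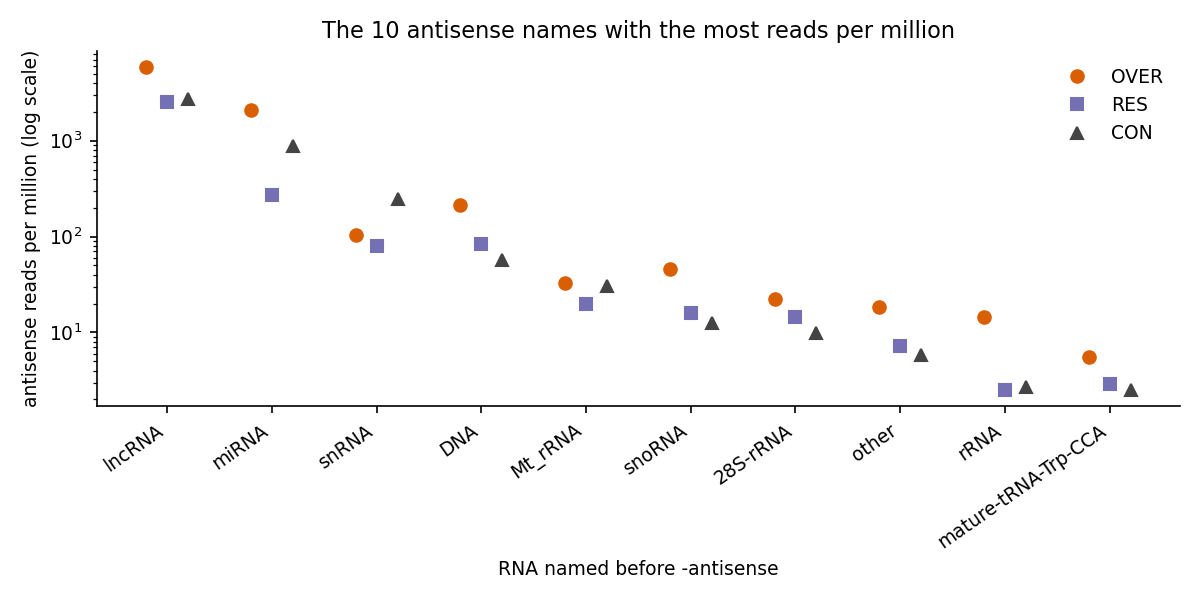
Antisense level in RPM (y axis, log scale) for the 10 antisense names with the highest mean over the 3 libraries, with OVER left, RES in the middle and CON right of each name. In RPM every name but snRNA is higher in OVER than in CON, which for lncRNA, Mt_rRNA and mature-tRNA-Trp-CCA turns with TMM scaling, and snRNA is highest in CON.

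The lncRNAs are long transcripts without a known protein product, and the sequences of this name held nearly all antisense reads above 24 nt. Their antisense level was 5882 RPM in OVER, 2528 RPM in RES and 2694 RPM in CON. OVER was higher than CON in RPM (log2 ratio 1.13), but not with TMM scaling (-0.043) or without the reads of 15 to 20 nt (-0.20), and the log2 ratio of RES against CON was -0.09, or -0.82 without the reads of 15 to 20 nt. The antisense strand held a like share of lncRNA reads in each library, 22.6% of sense plus antisense reads in OVER (22.4 to 22.7%), 23.9% in RES (23.7 to 24.1%) and 23.98% in CON (23.7 to 24.2%). The level of sense lncRNA reads followed the same order, with 20187 RPM in OVER, 8039 RPM in RES and 8541 RPM in CON. By length the share of the antisense strand was highest at 15 nt, with 36.6% in OVER, 36.8% in RES and 42.98% in CON. It was lower at 17 to 20 nt, with 10.9% in OVER, 17.5% in RES and 14.4% in CON. Of lncRNA-antisense reads, 4.07% in OVER, 18.4% in RES and 53.0% in CON were of 25 to 42 nt.

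Other classes were one-sided to very different degrees. Nuclear tRNA, whose fragments abound in mature sperm, had 232 antisense reads in OVER, 171 in RES and 108 in CON, which was 0.0230% of its reads in OVER, 0.00772% in RES and 0.00418% in CON. The antisense tRNA reads were spread over 58 tRNA names, led by mature-tRNA-Trp-CCA with 5.55 RPM in OVER, 2.89 RPM in RES and 2.50 RPM in CON. Mitochondrial tRNA had no antisense read in any library, with an upper limit of 0.00533% of its reads in OVER, 0.00295% in RES and 0.00537% in CON. Y RNA, a cytoplasmic RNA bound by the Ro60 protein, had 7 antisense reads in OVER, 2 in RES and 0 in CON, beside 345109 sense reads in OVER, 2031134 in RES and 739350 in CON.

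Small nucleolar RNA (snoRNA), which guides the modification of rRNA, had an antisense level of 46.5 RPM in OVER, 15.8 RPM in RES and 12.4 RPM in CON. OVER was higher than CON by a log2 ratio of 1.90. Its antisense share was 3.57% in OVER, 3.65% in RES and 0.884% in CON. The name DNA had 213 RPM in OVER, 84.1 RPM in RES and 57.3 RPM in CON, with a log2 ratio of 1.90 for OVER against CON and 0.55 for RES against CON. The name rRNA had 14.4 RPM in OVER, 2.51 RPM in RES and 2.70 RPM in CON, the largest log2 ratio of any name compared between OVER and CON (2.41). For 28S-rRNA, the RNA of the large ribosomal subunit, the antisense level was 22.1 RPM in OVER, 14.7 RPM in RES and 9.82 RPM in CON. For mitochondrial rRNA (Mt_rRNA) it was 32.6 RPM in OVER, 19.7 RPM in RES and 30.3 RPM in CON, with a log2 ratio of 0.10 for OVER against CON in RPM and an interval on both sides of 0 (-0.14 to 0.34). That ratio was -1.07 with TMM scaling, -0.88 with DESeq2 factors, -0.024 per annotated read and -2.43 without the reads of 15 to 20 nt.

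The miRNA-antisense reads were dominated by 1 family, and it was low in RES. Under the name miRNA, antisense reads gave 2107 RPM in OVER, 270 RPM in RES and 885 RPM in CON, with a log2 ratio of -1.71 for RES against CON that became 0.23 when only genome-matching sequences were counted. All 188 sequences of family a together gave 1830 RPM in OVER, 154 RPM in RES and 822 RPM in CON. RES was lower than CON by a log2 ratio of -2.41 (-2.49 to -2.34), and OVER was higher than CON by 1.15 (1.12 to 1.19) and higher than RES by 3.57 (3.50 to 3.64). The family held 86.5% of the miRNA-antisense reads of OVER, 56.6% of those of RES and 92.7% of those of CON. As background, the 20 letters shown are those known for the mature miRNA miR-203 of mammals, which is best known from skin and other epithelia, and the files name these reads only as miRNA-antisense. They were one-sided: no read of any library held the full complement of a member of 18 nt or longer.

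Most forms of family a did not match the genome used by the authors. Only 17.4% of its reads in OVER, 17.7% in RES and 7.51% in CON came from genome-matching forms, and the longer forms are given by value only. The most abundant single sequence, of 21 nt, had 5339 reads (644 RPM) in OVER, 609 reads (46.3 RPM) in RES and 2944 reads (295 RPM) in CON. The 20 nt form shown had 1067 reads in OVER, 159 in RES and 234 in CON, or 129 RPM in OVER, 12.1 RPM in RES and 23.4 RPM in CON. For this form RES was lower than CON by a log2 ratio of -0.96 (-1.26 to -0.66), a smaller difference than that of the family. Without family a the antisense total was 6550 RPM in OVER, 2801 RPM in RES and 2887 RPM in CON. At 21 to 24 nt, 9549 antisense reads in OVER, 8532 in RES and 5119 in CON lay outside the family, of 22080 in OVER, 10197 in RES and 12733 in CON.

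Reads with the sense names of miRNAs typical of epithelial cells stood in the same order as family a. Of 8 marker miRNAs listed for sperm, epithelium and blood, 3 had a sheep name in the files, and all were epithelial members of the miR-200 family, with no library at 0. The member oar-mir-200a gave 423 RPM in OVER, 66.8 RPM in RES and 161 RPM in CON. Reads with any of the 3 names gave 897 RPM in OVER, 115 RPM in RES and 413 RPM in CON, with a log2 ratio of 1.12 for OVER against CON and -1.85 for RES against CON. The part of epithelial RNA in the level of family a was not tested, and fewer cells of a type cannot be told apart from less RNA per cell in these libraries.

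The other miRNA-antisense reads were in another order, with 286 RPM in OVER, 118 RPM in RES and 64.6 RPM in CON. Family b gave 83.7 RPM in OVER, 54.03 RPM in RES and 19.2 RPM in CON. OVER was higher than CON by a log2 ratio of 2.12 (1.89 to 2.36), and RES was higher than CON by 1.49 (1.26 to 1.73). Family c gave 82.8 RPM in OVER, 30.9 RPM in RES and 17.6 RPM in CON, with log2 ratios of 2.23 (1.99 to 2.48) for OVER against CON and 0.81 (0.55 to 1.07) for RES against CON. Families a, b and c have different letters at bases 2 to 8, so no seed was shared. The files name a further 41 miRNAs of sheep on the antisense strand, 34 of them seen in OVER, 13 in RES and 11 in CON, and the highest, oar-mir-1197, had 11 reads in OVER, 1 in RES and 5 in CON.

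The long lncRNA-antisense families were highest in CON. Family g, with 2071 sequences the most diverse of the 30 largest families, gave 65.9 RPM in OVER, 104 RPM in RES and 440 RPM in CON. OVER was lower than CON by a log2 ratio of -2.74 (-2.87 to -2.61) and RES by -2.08 (-2.17 to -1.99). The 34 nt sequence shown for it, which carried the names lncRNA and snRNA together, had 6 reads in OVER, 34 in RES and 204 in CON. With a log2 ratio of -4.82 (-6.28 to -3.67) it was the lowest in OVER against CON of all single sequences compared. Family h gave 32.1 RPM in OVER, 36.2 RPM in RES and 235 RPM in CON, and its 31 nt sequence had 25 reads in OVER, 75 in RES and 440 in CON. For family h the OVER to RES ratio was within counting error of 0 (log2 -0.17, -0.39 to 0.05).

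Many reads of this kind carried the names lncRNA and snRNA together, and they were most of the snRNA-antisense reads. The snRNA-antisense level was 104 RPM in OVER, 79.7 RPM in RES and 244 RPM in CON, and the log2 ratio of OVER against CON was -1.22. The reads named both lncRNA and snRNA were 73.6% of the snRNA-antisense reads in OVER, 93.3% in RES and 97.7% in CON, and 42.1% of them in OVER, 74.7% in RES and 94.5% in CON were of 25 to 42 nt. Antisense reads with snRNA and no such pair of names numbered 229 in OVER, 70 in RES and 55 in CON.

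Families d, e and f, centred on 21 or 22 nt, were in the other order, but not all large families of this length were. Of the 12 led by 21 to 24 nt, families a and b among them, 7 had in OVER 2 or more times their CON level and 5 were within 2-fold. In RES, 4 of the 12 were 2 or more times above CON, 2 were as far below it and 6 were within 2-fold. Of single sense sequences of 21 to 24 nt with at least 100 reads, 48.1% were as far above CON in OVER and 5.75% as far below. In RES, 39.5% of such sense sequences were as far above CON and 6.22% as far below. Family d gave 86.5 RPM in OVER, 62.5 RPM in RES and 23.2 RPM in CON, with log2 ratios of 1.90 (1.68 to 2.12) for OVER against CON and 1.43 (1.22 to 1.64) for RES against CON. Family e gave 61.3 RPM in OVER, 52.0 RPM in RES and 21.7 RPM in CON. Family f gave 37.4 RPM in OVER, 6.08 RPM in RES and 4.81 RPM in CON, so that OVER stood alone (log2 2.96, 2.52 to 3.43, against CON) and the RES to CON ratio had an interval on both sides of 0 (0.34, -0.20 to 0.89). The last 9 letters of the 22 nt sequence of family f are also the first 9 letters of a 33 nt sequence of family g, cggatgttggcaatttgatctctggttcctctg, which had 7 reads in OVER, 34 in RES and 107 in CON. This 33 nt sequence, named both lncRNA and snRNA, was chosen for its low ratio of OVER to CON. Its direction opposite to that of family f is therefore no result. Whether the 2 sequences overlap in the genome was not tested.

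In the families led by a sequence of 21 to 24 nt that held at least 100 sequences, family a aside, the balance of lengths also differed by library. In all 6 of them the share of 25 to 42 nt reads was highest in CON and lowest in OVER. In 1 of the 6 this order rested on very few reads, with 0% in OVER, 1.10% of 272 reads in RES and 1.27% of 79 reads in CON. All library reads stood in the same order, with 31.8% of 25 to 42 nt in OVER, 65.0% in RES and 76.4% in CON. The median over the 6 families was 10.1% in OVER, 33.2% in RES and 44.9% in CON, and the highest value was 14.8% in OVER, 44.6% in RES and 65.9% in CON. The length of reads thus differed between the libraries inside families of the same letters.

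Families i and j, of 15 nt, were highest in OVER. Family i gave 320 RPM in OVER, 142 RPM in RES and 65.6 RPM in CON, and family j gave 246 RPM in OVER, 84.7 RPM in RES and 19.3 RPM in CON. Almost all of their reads were the 15 nt sequences shown. Family j was higher than CON by a log2 ratio of 3.67 (3.45 to 3.89) in OVER and 2.13 (1.91 to 2.36) in RES. Its 15 nt sequence had 1994 reads in OVER, 1108 in RES and 182 in CON. Longer reads without a name that held it numbered 10084 in OVER, 16062 in RES and 4160 in CON. For family i the longer reads were fewer than those of the sequence, with 769 against 2634 in OVER, 639 against 1865 in RES and 343 against 652 in CON. Reads with 2 or more runs of GGG were 26.4% of antisense reads of 15 to 20 nt in OVER, 50.0% in RES and 40.5% in CON, against 7.16% of all reads of that length in OVER, 15.8% in RES and 14.2% in CON. The letters of an antisense read of 15 nt often stood inside longer reads without a name: 46.3% of the 15 nt antisense reads in OVER, 51.5% in RES and 49.9% in CON belonged to sequences that such longer reads outnumbered. None belonged to a sequence found inside a longer read with a sense name. This value was 0 for antisense reads of every length in each library. A part of a sense match is itself a sense match, so the 0 can follow from the naming alone and is no result about these reads. As background, so few letters can match many places of a genome.

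**Figure D3:**
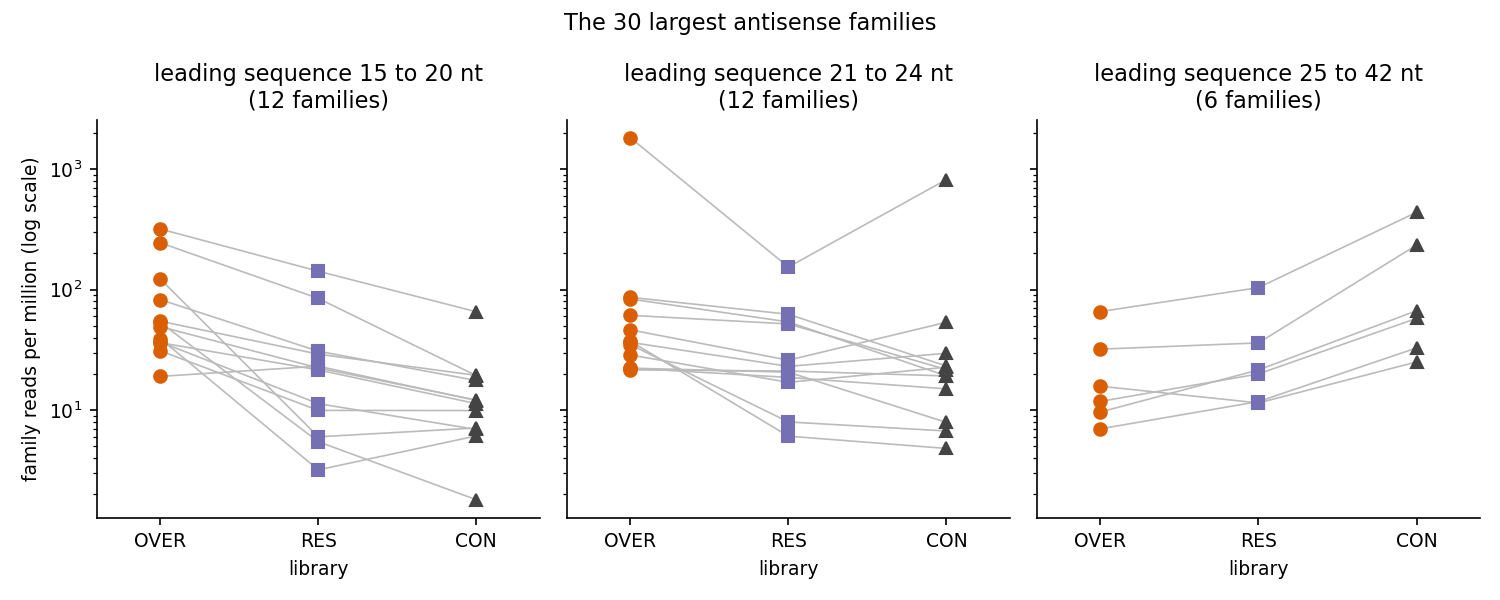
Level in RPM (y axis, log scale) of the 30 largest antisense families in OVER, RES and CON (x axis), with 1 line per family, split by the length of the leading sequence. Among 12 families led by 15 to 20 nt, 11 have in OVER 2 or more times their CON level. The 6 led by 25 to 42 nt lie below their CON level by 2 or more times in 5 cases for OVER and in all 6 for RES. Of single sense sequences of 15 to 20 nt, 86.6% have in OVER 2 or more times their CON level. In OVER, 49.1% of those of 25 to 31 nt and 79.7% of those of 32 to 42 nt lie 2 or more times below CON. In RES, 12.6% and 19.6% do so.

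The 30 largest families held 42.3% of antisense reads in OVER, 35.8% in RES and 56.4% in CON. The 12 families led by a sequence of 15 to 20 nt had a median log2 ratio of 2.26 for OVER against CON and 0.85 for RES against CON. The 12 led by 21 to 24 nt had medians of 1.32 and 0.28, and the 6 led by 25 to 42 nt had medians of -2.51 and -1.58. The families were formed from these reads, so the counts describe them and are no test.

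With at least 100 reads summed over the libraries compared, 53 of 73 single antisense sequences passed the 2-fold limit upwards in OVER against CON and 11 downwards, beside 40.7% and 28% of 5266 sense sequences. Between RES and CON, 9 of 44 antisense sequences passed upwards in RES and 19 downwards, beside 36.1% and 10.5% of 6712 sense sequences. Between OVER and RES, 46 of 65 antisense sequences passed upwards in OVER and 2 downwards, beside 25.9% and 37.9% of 6821 sense sequences. These counts depend on the read minimum, which a sequence can reach through 1 library alone. Of 38 sequences of 15 to 20 nt compared between OVER and CON, 33 reached 100 reads in OVER alone and 5 in CON alone, and of 10 sequences of 25 to 42 nt, 0 did so in OVER and 8 in CON. The direction of single antisense sequences by length is therefore not counted here.

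Among single sequences the largest difference of OVER from CON was that of a 15 nt lncRNA-antisense sequence, cggtggctgtagttc, with 176 reads in OVER, 4 in RES and 1 in CON (log2 7.73, 5.23 to 13.04). The sequence ccctctgtagacgac had 344 reads in OVER, 34 in RES and 8 in CON. The sequence ctgggaaactgggtc had 105 reads in OVER, 1 in RES and 0 in CON. They were chosen for the size of their ratios with OVER on top, so the values describe them only. Higher in RES than in the other libraries was tcgtgtccaactgtttgcaacc, a form of family d with 1 more base at its 3′ end, with 72 reads (8.69 RPM) in OVER, 239 reads (18.2 RPM) in RES and 43 reads (4.31 RPM) in CON.

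The first base set the length classes apart. Of antisense reads of 21 to 24 nt, 62.5% began with T (U in the RNA) in OVER, 51.2% in RES and 57.6% in CON, and without family a the shares were 54.3% in OVER, 47.6% in RES and 43.4% in CON. Genome-matching reads without a name had 43.2% in OVER, 36.8% in RES and 34.9% in CON at that length. Of antisense reads of 25 to 31 nt, 34.1% began with T in OVER (31.9 to 36.4%), 36.0% in RES (34.6 to 37.4%) and 24.3% in CON (23.5 to 25.2%). Unnamed genome-matching reads of that length began with T in 77.5% of cases in OVER, 75.9% in RES and 69.3% in CON. The T share of the antisense reads of piRNA size was thus below that of the unnamed reads in each of the 3 libraries. Their share of C was 37.2% in OVER, 33.5% in RES and 44.6% in CON, which made C the most frequent first base in OVER and CON and T in RES. Sense lncRNA reads of 25 to 31 nt began with T in 23.6% of cases in OVER, 28.9% in RES and 21.996% in CON.

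Antisense sequences seldom had a full complement in their library. Among those of 18 nt or longer, 4.31% of reads in OVER, 4.46% in RES and 2.97% in CON were of sequences whose whole complement lay in a read with a sense name. Overlaps of 5′ ends were counted among genome-matching sequences named lncRNA or DNA. They are matches of letters and not of places in the genome, and a sequence can have several partners. At 21 to 24 nt, 7.26% of antisense sequences in OVER (249 of 3431), 6.96% in RES (207 of 2976) and 5.26% in CON (123 of 2338) had an antisense partner overlapping by 10 nt. At 9 nt the numbers were 205 in OVER, 168 in RES and 104 in CON, and at 11 nt they were 87 in OVER, 56 in RES and 24 in CON, so 10 nt was a local maximum in each library. At 25 to 31 nt it was a local maximum in OVER (15, 49 and 6 sequences at 9, 10 and 11 nt) and in RES (111, 201 and 64 sequences), but not in CON (221, 216 and 110 sequences). Counted by reads, 17.2% of those of 21 to 24 nt in OVER, 17.8% in RES and 10.8% in CON had an antisense partner at 10 nt. At 32 to 42 nt the numbers at 9, 10 and 11 nt were 0, 1 and 0 in OVER, 7, 7 and 5 in RES and 33, 12 and 22 in CON. An overlap of 8 nt was more frequent than 10 nt in each library at 21 to 24 nt, with 341 sequences in OVER, 249 in RES and 160 in CON.

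Partners with a sense name were more numerous, and whether they showed a local maximum at 10 nt, above 9 and 11 nt, differed between sequences and reads. At 21 to 24 nt the sequences with such a partner at 9, 10 and 11 nt numbered 740, 734 and 538 in OVER, 745, 659 and 467 in RES and 453, 422 and 324 in CON, with no maximum at 10 nt. Their reads numbered 1671, 2433 and 1280 in OVER, 2485, 2161 and 892 in RES and 1092, 985 and 914 in CON, with a local maximum in OVER only. At 8 nt the reads were more than at 10 nt in each library, with 3047 in OVER, 2698 in RES and 1673 in CON. At 25 to 31 nt the sequences numbered 82, 101 and 38 in OVER, 352, 355 and 253 in RES and 593, 587 and 337 in CON. There the reads numbered 111, 167 and 52 in OVER, 630, 699 and 416 in RES and 970, 1072 and 504 in CON, with a local maximum at 10 nt in all 3 libraries. At 8 nt they numbered 86 in OVER, 835 in RES and 1838 in CON, so in RES and CON 8 nt was the more frequent.

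An overlap of 20 nt, as a 22 nt duplex cut by Dicer would have, was met at 21 to 24 nt by 5 antisense sequences in OVER, 6 in RES and 2 in CON with an antisense partner. With a sense partner it was met by 210 sequences in OVER, 205 in RES and 108 in CON, against 206 in OVER, 231 in RES and 130 in CON at 19 nt. By reads the values at 20 nt were above those at 19 nt in each library. They were 542 reads at 20 nt and 461 at 19 nt in OVER, 1321 and 608 in RES, and 482 and 254 in CON.

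**Figure D4:**
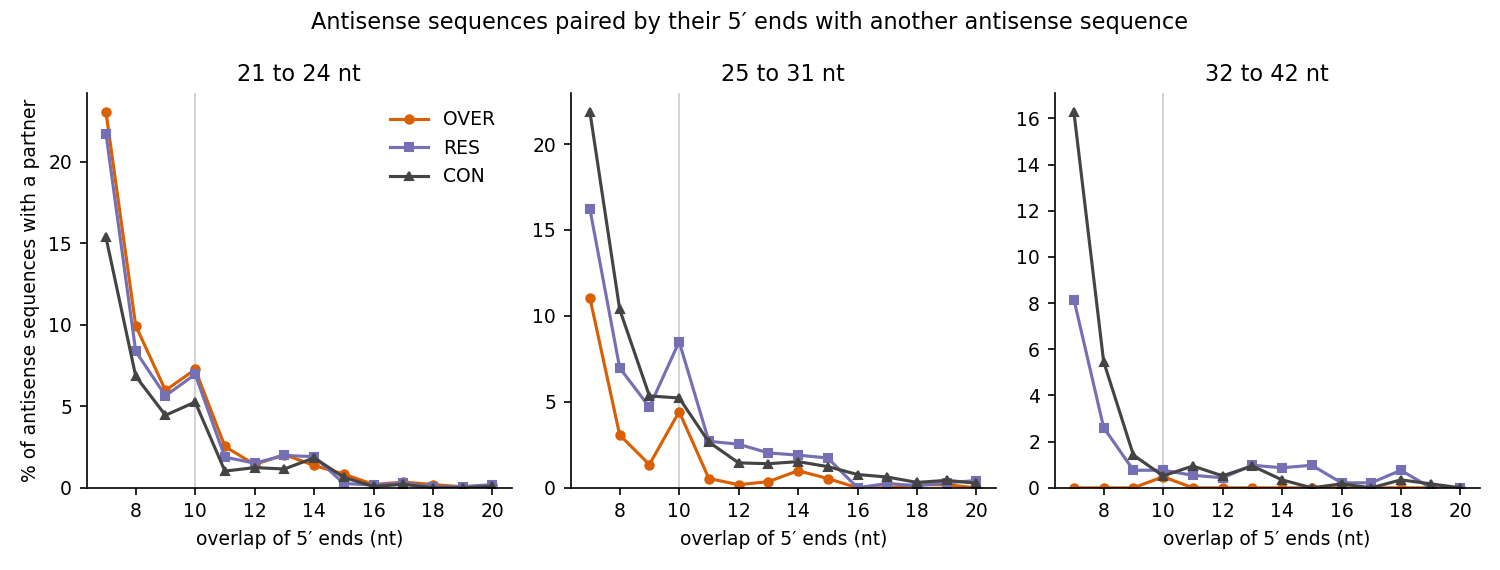
Percentage of antisense sequences (y axis) with a partner among the antisense sequences of the same length class whose 5′ end overlaps theirs by the given number of bases (x axis, nt), in OVER, RES and CON; the grey line marks 10 nt. At 21 to 24 nt the value at 10 nt is above that at 9 and 11 nt in the 3 libraries, with 7.26% in OVER, 6.96% in RES and 5.26% in CON.

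The pair at 10 nt whose rarer member had the most reads consisted of 2 sequences that both began with T. Each also had A at base 10, which the overlap fixes, since base 10 of each pairs with the first base of the other. The first 10 bases, which are complementary to each other, are in capitals:
lncRNA-antisense, 22 nt, first of the pair: TCGGACACGActgagcgacttc
lncRNA-antisense, 22 nt, second of the pair: TCGTGTCCGActctgtgtgact
The first had 66 reads (7.96 RPM) in OVER, 95 reads (7.22 RPM) in RES and 49 reads (4.91 RPM) in CON. The second had 101 reads (12.2 RPM) in OVER, 32 reads (2.43 RPM) in RES and 22 reads (2.20 RPM) in CON. Both occurred in every library, and both carried the name lncRNA-antisense. They were matched over the first 10 letters only, and whether they come from opposite strands of 1 place in the genome was not tested. The pairs next in this order, by reads of the rarer member, began with the same letters but for 1 base in each member. Some sequences stood in several of those pairs. As background, letters of this kind are known from short interspersed repeats that are present in many copies in ruminant genomes, and no repeat annotation was used here.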

How the data were processed

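Per the labels' protocols, sperm from semen were treated with somatic cell lysis buffer, RNA was taken with TRIzol, and NEBNext small RNA libraries, size-selected, were read on a NovaSeq. Per the file headers, each deposited table lists sequences with their length, read count, genome match and annotation; the counts are whole numbers without normalization. EdgeR is a tool in the submitters' processing notes. No aligner, annotation source or build is named in the labels used here. The members and lists were chosen with earlier results of these data known.

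The 3 tables of a group had identical counts, so 1 was used. RPM was reads over all reads of the library. A read with several names counted for each. Intervals are exact (Clopper-Pearson for shares, binomial for ratios), and in ratios a count of 0 was set to 3 reads. Named were the 10 antisense RNAs with the highest mean RPM, the 5 with the largest ratios in each direction, and for single sequences the 5 with most reads per library and 3 per direction, with at least 100 reads in both libraries together. Alternatives were edgeR 4.0.16 TMM factors and DESeq2 1.42.0 size factors, other denominators and filters. The code for ratios and intervals was tested on simulated counts, which says nothing of the differences between groups. Python 3.11.15 and scipy 1.17.1 were used.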

Additional observations from a re-analysis of the deposited data

How the results depend on the processing

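No paired analysis was possible because the 3 tables of a group are identical, and leaving out replicate 1, 2 or 3 gave the same values: log2 ratios of the antisense share of 1.18 (OVER against CON), -0.33 (RES against CON) and 1.50 (OVER against RES), 25 to 42 nt shares of 2.95% (OVER), 16.2% (RES) and 39.2% (CON), T starts of 40.8% (OVER), 37.1% (RES) and 37.8% (CON), and 8, 2 and 6 names at least 2-fold apart (in the order of the log2 ratios). The rule by any antisense name gave the same members.

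The log2 ratio of OVER against CON was 1.05 per annotated read, 1.10 per genome-matching read, 1.22 from genome-matching sequences, 0.51 without 15 to 20 nt and 1.15 without the most abundant sequence of each library. The same settings gave -0.56, -0.47, -0.060, -1.06 and -0.28 for RES against CON, and 1.61, 1.58, 1.28, 1.56 and 1.42 for OVER against RES. From genome-matching sequences, without 15 to 20 nt and without the most abundant sequences, the 25 to 42 nt share was 3.58%, 8.49% and 3.33% in OVER, 16.9%, 38.2% and 17.3% in RES, and 49.4%, 53.3% and 43.5% in CON. In that order of settings the T share was 34.9%, 59.9% and 33.1% in OVER, 35.7%, 44.1% and 32.8% in RES, and 30.3%, 39.6% and 31.1% in CON.

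TMM moved every log2 ratio of a name by -1.17 for OVER against CON, -0.15 for RES against CON and -1.02 for OVER against RES, and DESeq2 factors by -0.99, -0.03 and -0.96. Names at least 2-fold apart then numbered 3 by TMM and 2 by DESeq2 factors (OVER against CON), and 2 by either (OVER against RES). Without 15 to 20 nt there were 5 for OVER against CON and 2 for OVER against RES, from genome-matching sequences 1 for RES against CON, and with names of at least 1 read 65 (OVER against CON), 39 (RES against CON) and 47 (OVER against RES). The lncRNA ratio of OVER against CON turned to -0.20 without 15 to 20 nt and to -0.043 by TMM, the miRNA ratio of RES against CON to 0.23 from genome-matching sequences, and the snoRNA ratio of OVER against RES to -0.065 without 15 to 20 nt; the cause was not tested. Of 330 values of single names under these settings, 246 stayed within the interval of the reported value, 80 lay outside it, and the 4 just named turned from a value at least 2-fold apart. The 246 include settings that could not change the ratio of a name. These are the left-out replicates, the rule by any antisense name and the limit of at least 1 read, so the count overstates stability. With 1 library a group no value has a replicate check, and names under 100 reads are limited by depth.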
